A study of Mus musculus with 19 samples.

Results

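The livers of 6 Balb/c mice at lactation day 10 were compared with those of 7 nulliparous Balb/c mice, across every gene that reached a mean of at least 1 TPM over these 13 animals. TPM is the share of a gene's transcripts in a library after correction for gene length, scaled to a fixed total. The series holds 19 mice in all, and of the 51826 gene entries in its table, 25260 were above 0 in at least 1 of the 13 mice and 11535 entered the comparison. All mice were females labelled as 12 weeks old, each library came from flash-frozen liver of 1 animal, and the labels name no transgene and no treatment. Lactation day 10 therefore differs from the nulliparous state by a completed pregnancy, nursing of a litter and the food intake that goes with it, and these cannot be told apart. The libraries were made from poly(A) RNA and sequenced with paired-end reads. TPM values keep no read depth, so the precision of each value is known here from the spread between mice alone.

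The liver supplies the lactating mammary gland with substrates. It takes up dietary nutrients, makes fatty acids, cholesterol and plasma proteins, and exports lipid in lipoproteins, while the mother eats far more than before pregnancy. Sterol synthesis is switched on by the transcription factor SREBP2 and fatty acid synthesis by SREBP1c and ChREBP, whereas fasting turns the same tissue toward fatty acid oxidation and ketone bodies under PPARalpha.

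The mice are named by stage (NUL for nulliparous, LAC for lactation day 10) and an animal number from 1 to 240, and the numbers were split into ranges at 200. In the range under 200 there were 3 mice of each stage, and in the range from 200 upward 4 nulliparous and 3 lactating mice. In a principal component analysis of log2(TPM + 1) the ranges lay apart on the first component, which took up 37.5% of the variance, with scores from -32.71 to -21.27 under 200 and from 18.82 to 27.01 at 200 and above. The stages lay apart on the second component (19.6%), with scores from 11.48 to 24.14 in nulliparous mice and from -23.96 to -13.56 at lactation day 10. The labels do not say what the ranges are, and both hold both stages, so results are also read inside the ranges. Transcripts of 6 milk protein genes summed to 18.65 TPM in mouse LAC_102 and to at most 0.07 TPM in any nulliparous mouse. The liver identity of the libraries was clear, with the 8 hepatocyte markers summing to between 65015 and 108510 TPM in nulliparous and between 107270 and 170540 TPM in lactating mice.

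**Figure D1:**
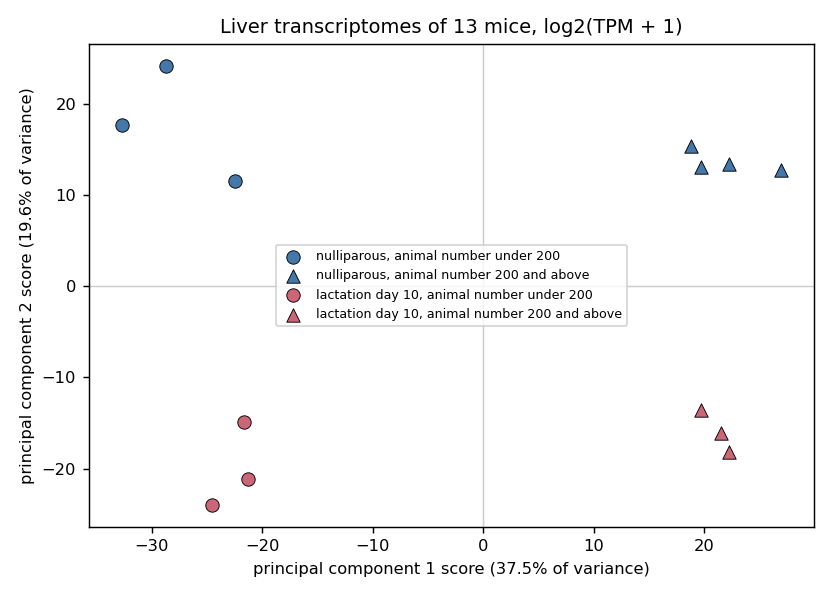
Scores of the 13 mice on the first principal component (horizontal axis, 37.5% of variance) and the second (vertical axis, 19.6%), with colour for the stage and symbol for the range of animal number. The ranges lie apart from left to right, and within each range the nulliparous mice lie at 11.48 or above and the lactating mice at -13.56 or below on the vertical axis.

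Most differences between the stages were smaller than 2-fold. With limma-trend, a linear model that shares variance information across genes, 984 genes passed an adjusted p of 0.05 (8.53% of those tested), of which 304 were higher at lactation day 10 (2.64%) and 680 lower (5.9%). At least 2-fold changes were found in 109 of them (0.945%), 63 upward and 46 downward. In 466 genes the lactating and nulliparous mice did not overlap at all (4.04%), and 444 of the 984 were among these. The balance of rises and falls depended on scaling. Rises made up 30.9% of the calls on TPM as deposited, but 52.5% of 943 calls after each library was rescaled by the median ratio of its genes (495 higher, 4.29%, and 448 lower, 3.88%), and 738 genes were called both ways. The share of total TPM taken by the 10 top genes of a library ran from 25.7% to 28.0% in nulliparous and from 29.0% to 31.2% in lactating animals. Without mouse LAC_102 the comparison gave 670 genes, 207 higher and 463 lower.

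The changes were read again within the ranges. Fitting the ranges apart, so that no mouse was shared, 934 genes passed among mice numbered under 200 and 825 among those of 200 and above. Of the 934, 88.4% had the same sign in the other range and 25.9% passed there too, and of the 825 these shares were 89.9% and 29.3%. A single gene passed in both with opposite signs. In 1 fit with separate stage effects for each range, 442 genes passed in both with the same sign (3.83%). Adding the range as a covariate to the comparison raised the calls to 2128, with 778 higher (6.74%) and 1350 lower (11.7%), and retained all 984. The stage effect itself differed between the ranges in 22 genes (0.191%).

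**Figure D2:**
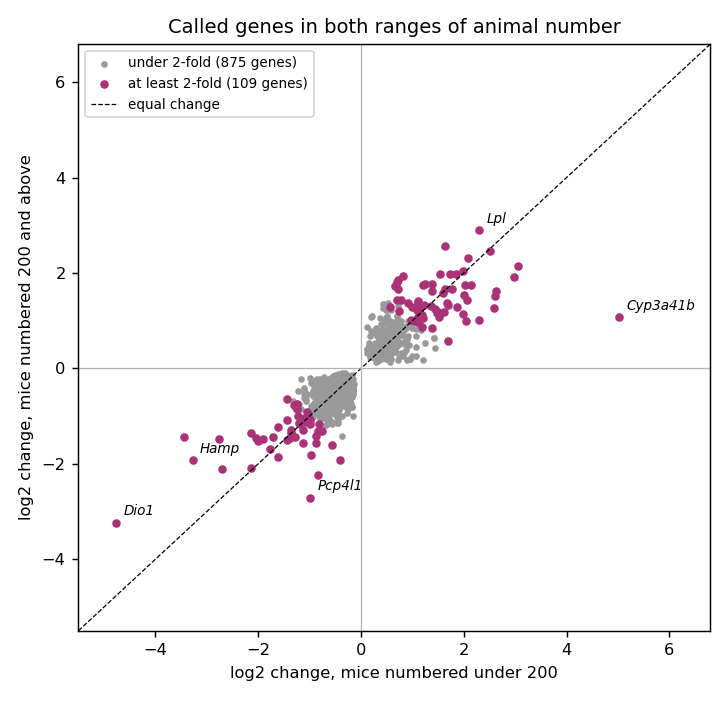
Log2 change from nulliparous to lactation day 10 among mice numbered under 200 (horizontal axis) and 200 and above (vertical axis) for the 984 genes called over all mice, with the 109 that changed at least 2-fold in the darker colour. All points lie in the lower left or upper right quadrant, which the call over all mice partly fixes, and Pcp4l1 and Cyp3a41b lie far from the line of equal change.

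Of 998 genes placed in 40 lists of liver functions, 994 were in the table, 931 reached the expression limit and were tested, and 167 passed, 87 higher and 80 lower (17.9%). The counts below are of tested members. The lists with the largest shares of rising genes were sterol synthesis, fatty acid synthesis and the Nrf2 antioxidant response, and those with the largest shares of falling genes were ketogenesis, pericentral genes and interferon-stimulated and antigen presentation genes. Over all genes tested the median log2 change was -0.03, against which the medians of the lists below are to be read.

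**Figure D3:**
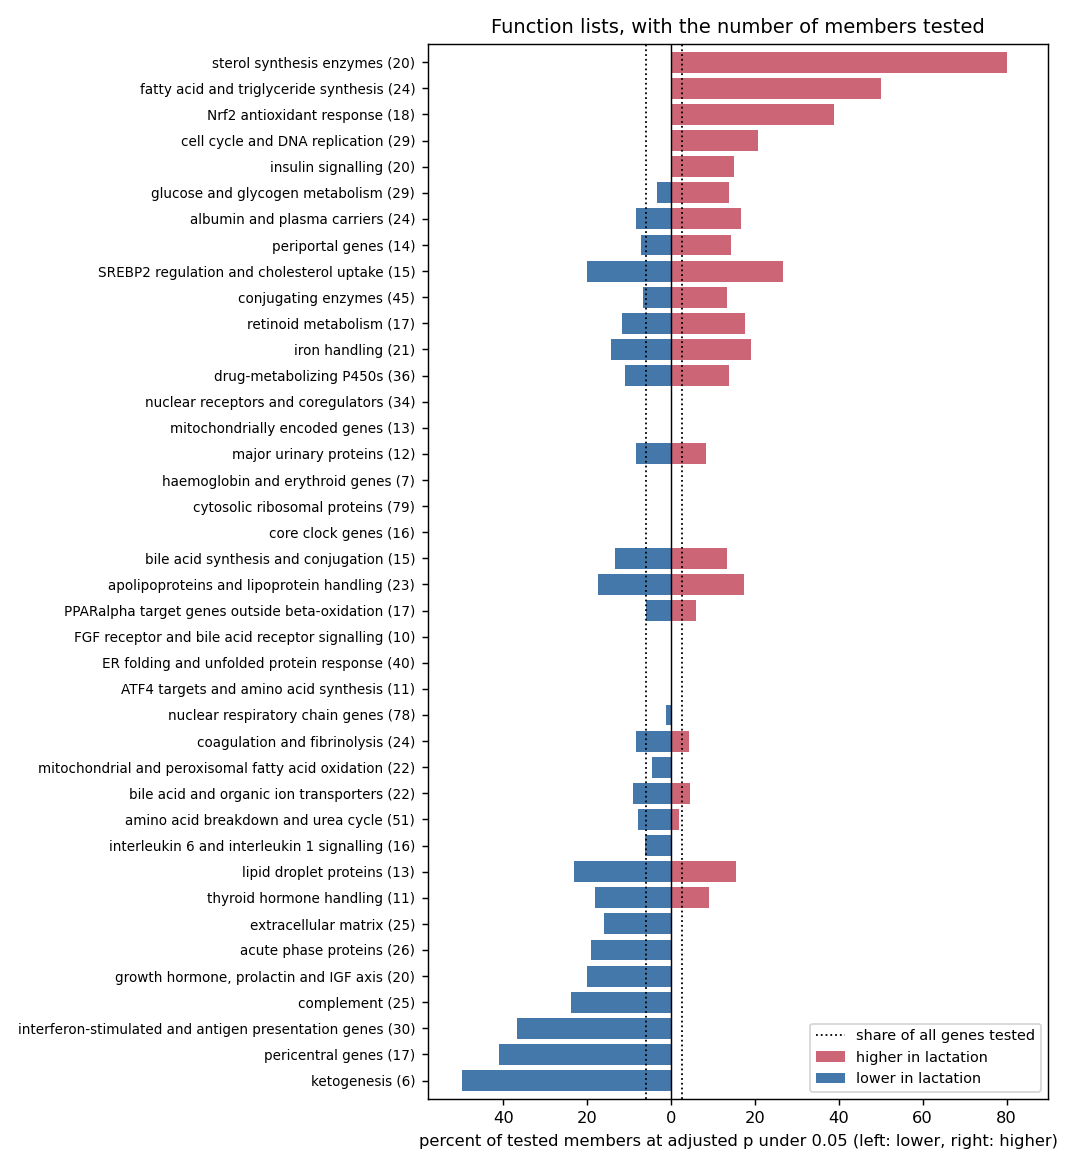
Percent of the tested members of each of 40 function lists that were higher (right) or lower (left) at lactation day 10 at an adjusted p under 0.05, with the number tested in brackets and dotted lines at the shares of all 11535 genes, 2.64% and 5.9%. Sterol synthesis (16 of 20) and fatty acid and triglyceride synthesis (12 of 24) reach farthest to the right, and ketogenesis (3 of 6), pericentral genes (7 of 17) and interferon-stimulated and antigen presentation genes (11 of 30) farthest to the left.

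Cholesterol synthesis rose along nearly its whole length. Of 20 enzymes from acetyl-CoA to cholesterol, 16 were higher at lactation day 10 and 0 lower. Over the list the median difference was 0.77 on the log2 scale. The remaining 4 were not called, although their differences were also above 0, from 0.04 for Ebp to 0.52 for Hsd17b7. Leaving out any 1 mouse gave between 14 and 19 rising enzymes, and 10 passed in both ranges.

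Lss, which closes the sterol ring, was at 10.6 TPM in the lowest nulliparous mouse, 17.4 at the median and 24.2 in the highest, and at 34.7, 60.1 and 83.4 TPM in lactation. The groups did not overlap, and the mean was 3.41 times higher (log2 difference 1.69 ± 0.20 SE, adjusted p = 0.000368). Squalene epoxidase, Sqle, and mevalonate diphosphate decarboxylase, Mvd, rose by similar amounts (1.70 ± 0.28 and 1.87 ± 0.33), each with every lactating mouse above every nulliparous mouse. Fdps rose by 1.12 ± 0.21, Dhcr7, the last step, by 1.01 ± 0.16, and Tm7sf2 by 0.57 ± 0.08. Hmgcs1, an early synthase of the pathway, rose by 0.75 ± 0.20 (adjusted p = 0.0321), and its call was lost in 8 of 13 fits that each left out a mouse, with an adjusted p of up to 0.075 without mouse LAC_102.

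Among 15 genes of SREBP2 regulation and cholesterol uptake 4 rose, Insig1, Stard4 and Scap among them, and Abcg8, Soat2 and Mylip fell. Insig1, which holds SREBPs back when sterols are plentiful and is itself a target of theirs, rose 1.98 times in mean TPM (adjusted p = 0.0188) with overlapping groups. Srebf2, which encodes SREBP2, differed by 0.21 ± 0.13 (adjusted p = 0.386) and was not called. The 3 falls in this list did not hold, as median-ratio scaling left 0 of them and so did leaving out mouse LAC_102 or LAC_36, or NUL_1, NUL_220, NUL_226 or NUL_227, while 1 was left without mouse LAC_133, LAC_200 or LAC_213, or NUL_221.

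Genes of fatty acid synthesis rose as well, from the supply of acetyl-CoA to the first step of glycerolipid assembly. Of 24 genes, 12 were higher and 0 lower (median log2 change 0.66), all 12 passed in both ranges, and leaving out single mice gave 11 to 13. The rises covered citrate export and cleavage (Slc25a1, Acly), malonyl-CoA synthesis (Acaca, Acacb), chain synthesis (Fasn), elongation (Elovl6), desaturation (Scd1, Scd2), NADPH supply (Me1) and glycerol acylation (Gpam), along with Thrsp and Pnpla3. Slc25a1 was not called without mouse LAC_200 (adjusted p = 0.0506).

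Scd1, the delta-9 desaturase that makes oleate, stood at 404, 723 and 1069 TPM in the lowest, median and highest nulliparous mouse and at 1709, 2816 and 3442 TPM in lactation. The groups were well apart, and the mean rose 3.84 times (1.96 ± 0.25, adjusted p = 0.000441). Fasn, fatty acid synthase, went from 49.7, 60.8 and 92.1 TPM to 126.0, 248.0 and 321.5 TPM (1.83 ± 0.19, adjusted p = 0.000171), with mouse LAC_133 the lowest of the lactating animals. Elovl6, which elongates palmitate, went from 10.5, 12.7 and 19.6 TPM to 29.7, 58.6 and 67.5 TPM (1.89 ± 0.19). These genes changed by nearly the same amount in both ranges, with 1.98 and 2.04 for Scd1 and 1.73 and 1.97 for Fasn under 200 and at 200 and above.

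Thrsp, a small nuclear protein tied to lipogenesis, rose by 1.88 ± 0.22. Acacb, whose malonyl-CoA acts at the mitochondrial surface, rose 2.99 times in mean TPM and Acaca, the cytosolic carboxylase, by 1.28 ± 0.25 on the log2 scale. Pnpla3, a lipid droplet protein, changed most of all members (2.04 ± 0.41, adjusted p = 0.00772), from a low level of at most 2.88 TPM in nulliparous mice to 8.64 TPM at the lactating median. Srebf1, the gene of SREBP1c, and Mlxipl, the gene of ChREBP, were not called over all mice (0.60 ± 0.33, adjusted p = 0.299, and 0.46 ± 0.19, adjusted p = 0.162). Under 200 Srebf1 was at 52.2 to 58.6 TPM in nulliparous and 95.05 to 141.0 TPM in lactating mice. From 200 upward these were 75.6 to 193.0 and 153.6 to 214.0 TPM. Mlxipl was at 83.5 to 104.9 and 109.0 to 176.2 TPM under 200, and at 56.4 to 94.4 and 82.2 to 92.8 TPM from 200 upward. The distal triglyceride enzymes Dgat1 and Dgat2 differed by -0.10 and 0.05 and were not called either.

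**Figure D4:**
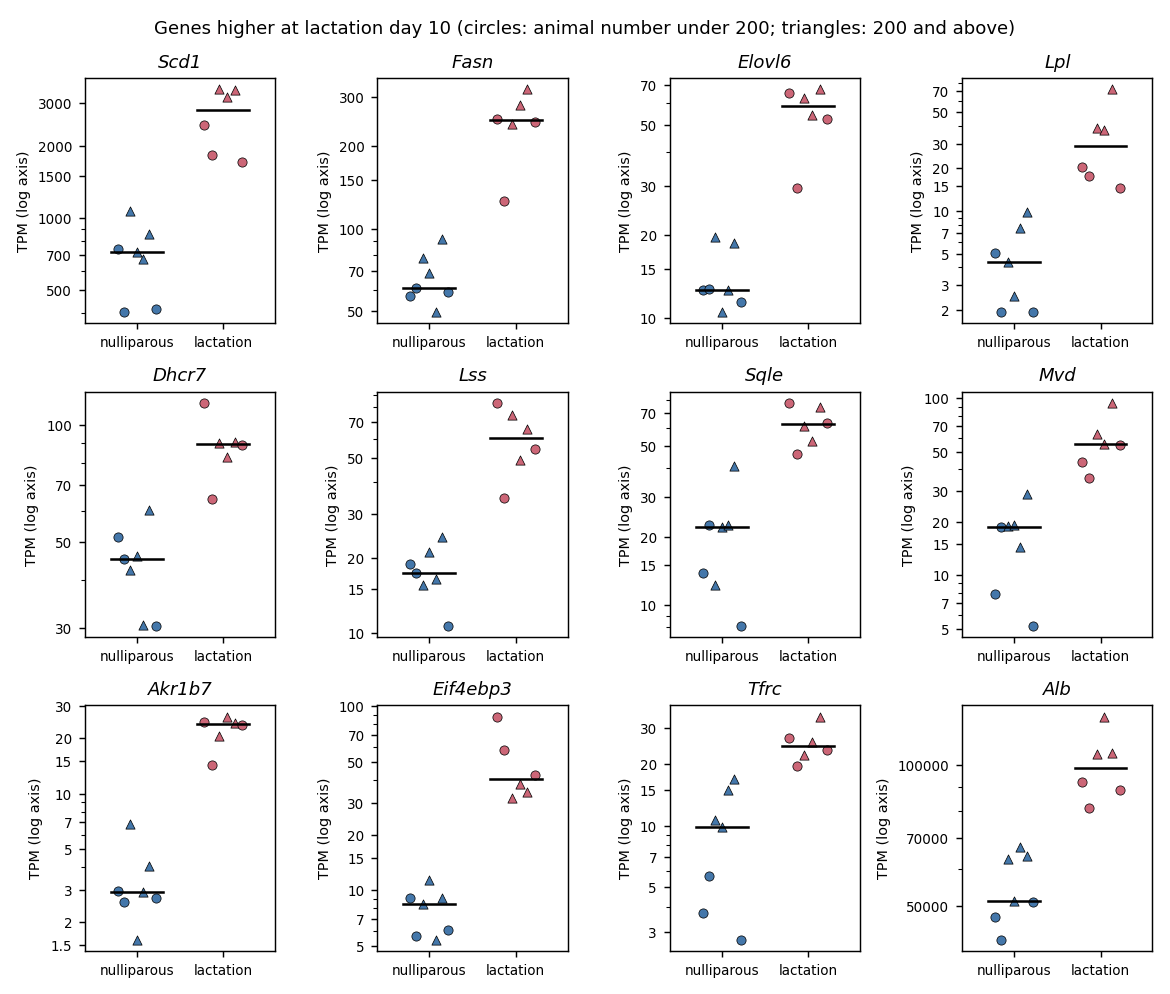
TPM of 12 genes in each of the 13 mice (vertical axes, log scale, a panel per gene), nulliparous on the left and lactation day 10 on the right, with circles for animal numbers under 200, triangles for 200 and above and a bar at the group median. In all 12 panels each lactating mouse lies above each nulliparous mouse, from the desaturase Scd1 to albumin.

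Promoters of these genes are shown because their members rose together. RefSeq promoter windows on GRCm38.p6 were available for 15 of the sterol enzymes and 19 of the fatty acid genes, and the 250 bases before the start site were searched on both strands for 8 motifs, chosen after the values were seen. The CCAAT box (CCAAT), bound by NF-Y, which works beside SREBPs, was found in 14 of the 15 sterol promoters and 12 of the 19 fatty acid promoters, and in 33.8% of all 32851 promoters in the table and 40.9% of those of the tested genes. It was also in 14 of 23 promoters of the interferon-stimulated and antigen presentation genes described below, a share (60.9%) near that of the fatty acid genes (63.2%). A sterol regulatory element (TCACNCCAC) was matched in 1 sterol promoter, that of Hmgcs1, in 1 fatty acid promoter, that of Mlxipl, and in 1.05% of all promoters. Further motifs are counted in the 15 sterol promoters, the 19 fatty acid promoters, all promoters and those of the tested genes, in that order. CACCCCAC was in 2, 1, 2.58% and 3.3%, and the E box CACGTG in 3, 4, 6.02% and 9.98%. The BMP response element GGCGCC was in 3, 5, 9.59% and 19.2%. ATCAAAG, bound by TCF factors, was in 0, 0, 3.21% and 2.77%, and the gamma-activated site TTCNNNGAA in 1, 0, 7.02% and 7.15%. The windows below are printed 5′ to 3′ on the gene's strand, without bases that the annotation places in an exon, and capitals mark the CCAAT box on either strand and, in Hmgcs1, also the sterol regulatory element. They are chr13:119690101-119690350 on the plus strand, chr10:76531355-76531587 on the plus strand and chr11:120824548-120824797 on the minus strand.
Hmgcs1: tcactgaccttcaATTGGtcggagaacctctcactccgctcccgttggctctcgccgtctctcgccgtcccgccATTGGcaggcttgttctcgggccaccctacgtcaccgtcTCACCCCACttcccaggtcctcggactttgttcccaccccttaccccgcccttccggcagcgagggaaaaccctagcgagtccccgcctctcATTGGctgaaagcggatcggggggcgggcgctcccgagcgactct
Lss: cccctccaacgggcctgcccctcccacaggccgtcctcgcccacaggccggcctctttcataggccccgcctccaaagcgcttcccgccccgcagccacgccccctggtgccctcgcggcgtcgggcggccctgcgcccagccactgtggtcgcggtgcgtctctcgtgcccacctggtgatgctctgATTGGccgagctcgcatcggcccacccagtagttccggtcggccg
Fasn: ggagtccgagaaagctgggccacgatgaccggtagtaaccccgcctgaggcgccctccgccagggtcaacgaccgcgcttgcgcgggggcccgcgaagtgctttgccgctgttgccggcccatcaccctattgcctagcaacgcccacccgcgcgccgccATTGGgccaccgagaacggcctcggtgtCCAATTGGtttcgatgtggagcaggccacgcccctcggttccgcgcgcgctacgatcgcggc
In the Hmgcs1 window 3 CCAAT boxes surround the sterol element, Lss has 1 box and Fasn 3, of which 2 overlap on opposite strands. Such a match is a description of the letters, and binding was not measured.

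Over all mice, oxidation and ketogenesis did not rise with synthesis. Among 22 genes of mitochondrial and peroxisomal fatty acid oxidation, 1 fell and 0 rose, and the median log2 change was -0.08. Without mouse LAC_102 or LAC_240 the count of falls was 2. In the fit with a stage effect per range, 2 were higher and 1 lower under 200. At 200 and above 1 was higher and 5 were lower, and the 1 gene that passed in both with the same sign was higher. The gene that fell over all mice was Cpt1a, the carnitine palmitoyltransferase through which long chains enter mitochondria and which malonyl-CoA inhibits. It stood at 71.5, 85.2 and 95.4 TPM in nulliparous mice and at 43.3, 58.7 and 70.0 TPM in lactation, with no overlap (fell by 0.59 on the log2 scale, SE 0.11, adjusted p = 0.00612). In the fit by range Cpt1a passed at 200 and above (-0.78, adjusted p = 0.00199) but not under 200 (-0.40, adjusted p = 0.054). Ppara, the receptor that drives the fasting program, was not called (-0.45 ± 0.15, adjusted p = 0.085).

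In ketogenesis 3 of 6 genes fell and 0 rose. Bdh1, which turns acetoacetate into beta-hydroxybutyrate, fell from 204.6, 238.7 and 269.5 TPM to 109.4, 129.3 and 149.3 TPM, in both ranges (-0.93 and -0.84, over all mice -0.87 ± 0.08, adjusted p = 0.000133). Acat1 fell by 0.69 ± 0.09, also without overlap. After median-ratio scaling 2 genes of the list were lower.

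Some genes of fatty acid use differed by range as well as by stage. Of 17 PPARalpha targets outside beta-oxidation 1 rose and 1 fell over all mice, Cyp4a31 (1.37 ± 0.19) and Plin2 (-0.65 ± 0.13). In the fit with a stage effect per range, 6 were higher and 1 lower under 200 (median log2 change 0.45). At 200 and above 3 were higher and 4 lower (median -0.003). Passing in both ranges with the same sign were 3 rises and 1 fall. Cyp4a10, a fatty acid omega-hydroxylase, held 784 ± 186 TPM (SD, n = 3) in nulliparous and 1565 ± 42.2 TPM (n = 3) in lactating mice numbered under 200, and 47.3 ± 3.61 (n = 4) and 246 ± 28.8 TPM (n = 3) at 200 and above. Within each range the lactating mice were higher, with log2 differences of 1.03 (adjusted p = 0.0016) and 2.35 (adjusted p = 4.6e-06), while over all mice the gene was not called (adjusted p = 0.216). The difference between the ranges was itself 1.33 ± 0.20 (adjusted p = 0.0213). Cd36, a fatty acid transporter, likewise passed inside both ranges (0.91 and 1.08) and not over all mice (adjusted p = 0.155).

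Lipid handling outside the hepatocyte's synthetic route was split. Of 23 genes of apolipoproteins and lipoprotein handling, 4 rose and 4 fell. Lpl, lipoprotein lipase, an enzyme of fat, muscle and mammary capillaries that adult hepatocytes hardly make, had one of the largest rises of all genes. It went from 1.93, 4.36 and 9.78 TPM to 14.5, 28.9 and 72.7 TPM (mean 7.08 times higher, 2.54 ± 0.40, adjusted p = 0.00176), with every lactating mouse above every nulliparous one. Markers of adipocytes summed to between 0.19 and 20.34 TPM in nulliparous and between 0.26 and 2.85 TPM in lactating mice, and mouse LAC_102, with 18.65 TPM of milk transcripts, had Lpl at 20.6 TPM. The part of other cells in the level of Lpl was not tested. Pltp, which transfers phospholipids to HDL, rose by 1.71 ± 0.23, and Mttp, which loads lipid onto nascent lipoproteins, by 0.28 ± 0.07 (adjusted p = 0.0241). Mttp was not called without mouse LAC_102, NUL_220 or NUL_221 (adjusted p of up to 0.0588).

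Apoa5, an activator of lipoprotein lipase in plasma, fell by 0.70 ± 0.14, and Apon, Apoc4 and the hepatic lipase Lipc fell by 0.58, 0.44 and 0.48. Among 13 lipid droplet proteins, Plin2, Mgll and Cideb fell and Hsd17b13 and Abhd5 rose. Plin2, the coat protein whose level tracks stored fat in hepatocytes, went from 262.0, 333.1 and 477.8 TPM to 180.8, 216.6 and 244.2 TPM, without overlap (-0.65 ± 0.13, adjusted p = 0.00912). The call on Abhd5 (adjusted p = 0.0485) was lost in 9 of 13 fits, with an adjusted p of 0.101 without mouse LAC_240.

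Bile acid synthesis changed in both directions. Of 15 genes 2 rose and 2 fell. Cyp7a1, the rate-limiting hydroxylase, went from 15.03, 18.7 and 68.3 TPM to 27.4, 64.7 and 115.5 TPM. Mouse NUL_13, the highest of its group, lay inside the lactating range, and the difference of 1.45 ± 0.36 (adjusted p = 0.0241) was no longer called without mouse LAC_102 (adjusted p = 0.0604) or LAC_36. Cyp8b1, which sets the share of cholic acid, rose by 0.53 ± 0.10 with no overlap. In the fit by range both rises passed under 200 (1.61, adjusted p = 0.028 for Cyp7a1, and 0.66, adjusted p = 0.015 for Cyp8b1). Neither passed at 200 and above (1.19, adjusted p = 0.082, and 0.42, adjusted p = 0.085). Downstream, Hsd3b7 fell from a median of 614 to 376 TPM (-0.70 ± 0.11, adjusted p = 0.00148) and Scp2 by 0.46 ± 0.08. Among 10 genes of FGF receptor and bile acid receptor signalling 0 were called by limma-trend (3 at an unadjusted p under 0.05), 2 were higher with the range as covariate, and 1 was higher without mouse LAC_133, or NUL_13 or NUL_226. With a stage effect per range 0 of the 10 passed under 200, and 1 was higher and 2 were lower at 200 and above.

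Of 22 bile acid and organic ion transporters 2 fell, Slc22a7 among them, and Abcc4 rose. Slc22a7, the organic anion transporter Oat2, went from 18.3, 27.1 and 49.2 TPM to 3.53, 8.05 and 14.3 TPM (-1.81 ± 0.34, adjusted p = 0.00573). The rise of Abcc4 was lost in 11 of 13 fits, with an adjusted p of 0.108 without mouse LAC_102.

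Drug metabolism changed member by member. Of 36 P450s of drug metabolism 5 rose and 4 fell, and leaving out a mouse gave 3 to 5 rises (3 without mouse LAC_102, LAC_133, LAC_240 or LAC_36, or NUL_226) and 2 to 4 falls (2 without mouse LAC_133). Cyp2a4, a steroid hydroxylase, went from 352, 493 and 632 TPM to 900, 1091 and 1135 TPM (1.16 ± 0.12, adjusted p = 0.000144). The female-predominant Cyp3a41a rose by 2.16 ± 0.46 and its near-identical neighbour Cyp3a41b by 2.82 ± 0.82, between which the division of reads is uncertain. The call on Cyp3a41b was lost in 9 of 13 fits (adjusted p of 0.0964 without mouse LAC_102). Cyp2b13 fell by 1.67 ± 0.34. Cyp2e1, the ethanol-inducible P450 of pericentral hepatocytes and one of the most abundant, fell from 2396, 3981 and 5932 TPM to 1037, 1749 and 2831 TPM (-1.18 ± 0.29, adjusted p = 0.0222), in both ranges (-0.88 and -1.56).

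Conjugating enzymes gave 6 rises and 3 falls among 45. Ugt1a5 rose by 1.53 ± 0.17 and the glutathione transferases Gsto1 and Gstp1 by 0.56 and 0.58, while Gstk1 fell by 0.63. The first exons of the Ugt1a genes share 1 set of downstream exons, so reads may have been divided between them. Leaving out mouse LAC_200, or NUL_1 or NUL_220, reduced the falls from 3 to 1.

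The antioxidant response and the pentose phosphate branch rose. Of 18 genes controlled by Nrf2, 7 were higher and 0 lower (median log2 change 0.31), 5 to 7 in fits without a mouse and 10 with the range as covariate. Srxn1 (0.51 ± 0.08) and Txnrd1 (0.44 ± 0.07), which reduce oxidized peroxiredoxin and thioredoxin, rose without overlap, and Aox1 and Ephx1 by 0.34 and 0.55. Tkt, transketolase, rose by 0.71 ± 0.11. The NADPH-producing G6pdx and Pgd, which also serve lipid synthesis, rose by 1.16 ± 0.33 and 0.63 ± 0.18, calls that were lost in 9 and 10 of 13 fits (adjusted p of 0.0921 without mouse LAC_213 and 0.0948 without mouse LAC_240).

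Glucose metabolism as a whole was not among the strongest changes. Of 29 genes 4 rose, Pfkfb1, Gbe1, Slc37a4 and Ugp2, and Ldha fell, but the calls on Slc37a4 and Ugp2 were lost in 8 and 11 of 13 fits, with an adjusted p of 0.0715 without mouse LAC_213 and 0.101 without mouse LAC_36. Leaving out single mice brought the 4 rises to between 2 and 5 (2 without mouse LAC_102, LAC_200, LAC_213 or LAC_240, or NUL_1, NUL_13, NUL_221 or NUL_226), and without LAC_213 there were 2 falls. Pfkfb1, which sets fructose 2,6-bisphosphate, went from 7.71, 12.6 and 16.4 TPM to 17.6, 19.8 and 34.2 TPM (0.78 ± 0.16, adjusted p = 0.0105), and Ldha, lactate dehydrogenase, fell by 0.72 ± 0.14. The gluconeogenic G6pc and Pck1 had lower means that were not called (-0.73 ± 0.30, adjusted p = 0.156, and -0.82 ± 0.34, adjusted p = 0.158).

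Among 20 genes listed under insulin signalling 3 rose in all 13 fits that left out a mouse. Eif4ebp3, a repressor of cap-dependent translation, went from 5.4, 8.4 and 11.4 TPM to 31.6, 40.2 and 87.9 TPM (2.43 ± 0.23, adjusted p = 0.000133). Ddit4, an inhibitor of mTORC1, rose by 1.45 ± 0.25, and Pdk1, which phosphorylates pyruvate dehydrogenase, by 0.69 ± 0.13. None of these 3 encodes the receptor, its substrates or a kinase of its cascade.

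Plasma proteins changed in both directions. Albumin, the most abundant plasma protein, went from 42481, 51260 and 66970 TPM to 81145, 98898 and 127180 TPM (mean 1.81 times higher, 0.86 ± 0.14, adjusted p = 0.00212), also after median-ratio scaling (adjusted p = 0.0018). Of 24 albumin and carrier genes 4 rose and 2 fell. Besides Alb these were Serpina1d (1.35 ± 0.24) and Serpina1e (1.38 ± 0.21), members of the antitrypsin cluster with near-identical sequences, and Afp, the fetal albumin relative, at low levels (from a median of 2.40 to 5.50 TPM). Mug1 and Mug2, rodent relatives of alpha-2-macroglobulin, fell by 0.86 and 1.16.

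Of 26 acute phase proteins 5 fell and 0 rose. In the fit with a stage effect per range, 3 were higher and 2 lower under 200, and 0 higher and 7 lower from 200 upward. The count of falls was 3 without mouse LAC_102, LAC_133, LAC_240 or LAC_36, or NUL_220, NUL_221, NUL_226 or NUL_227, and 1 rise was called without mouse LAC_200 or LAC_240, or NUL_221. Saa1, serum amyloid A1, went from 26.03, 43.6 and 345.4 TPM to 9.13, 12.7 and 17.3 TPM (-2.40 ± 0.58, adjusted p = 0.0212). Mice NUL_1 and NUL_221 were far above the others in Saa1, at 345 and 315 TPM, and even the lowest nulliparous mouse was above the highest lactating one. The change was not called for either range in the fit with a stage effect per range (-2.70, adjusted p = 0.061, and -2.11, adjusted p = 0.14). Saa2, which shares most of its sequence with Saa1, and Saa3 fell by 2.17 and 1.86 but were no longer called in 11 and 8 of 13 fits, with an adjusted p of 0.0953 and 0.0828 without mouse LAC_102. Saa4, the constitutive member, fell by 0.67 ± 0.11 in all of them.

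Among 16 genes of interleukin 6 and interleukin 1 signalling 1 was called, where 8.53% of all genes were. It was Il1rap, the shared chain of the interleukin 1 receptor, which fell by 0.57 ± 0.09. Complement gave 6 falls among 25, C1qa, C1qb, C1qc, C2, C9 and Cfp, and 2 to 7 when a mouse was left out (2 without mouse LAC_102 or LAC_36, or NUL_221 or NUL_227, and 3 without LAC_240), and 1 complement gene was higher without mouse LAC_133. The calls on C1qa, C1qb and Cfp were each lost in 7 of 13 fits, and that on C9 in 10. The C1q chains are made by macrophages, and they fell by 0.57 to 0.65. The 10 Kupffer cell and macrophage markers differed by -0.75 (Vsig4) to -0.03, with a median of -0.58, and 4 of them were called. Coagulation genes gave 1 rise, of Kng1, and 2 falls among 24, and 2 rises and 1 fall after median-ratio scaling.

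Interferon-stimulated and antigen presentation genes were lower as a group. Of 30, 11 fell and 0 rose, all 30 differences were below 0, and the median log2 change was -0.44. Leaving out a mouse gave 9 to 13 falls, median-ratio scaling 11 and the range as covariate 19, and 8 passed in both ranges. H2-Aa, a chain of MHC class II, went from 14.3, 18.3 and 29.1 TPM to 3.45, 6.52 and 9.90 TPM (-1.39 ± 0.21, adjusted p = 0.00169). The groups did not overlap. Its partners H2-Eb1 and H2-Ab1 fell by 1.13 and 1.05 and the invariant chain Cd74 by 1.10. H2-Ab1 was not called without mouse LAC_102 or LAC_36 (adjusted p of up to 0.0522).

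The guanylate-binding proteins, which interferon gamma induces, fell too. Gbp3 went from 7.11, 8.23 and 14.9 TPM to 2.68, 3.88 and 4.61 TPM (-1.03 ± 0.15) and Gbp2 from 3.81, 4.36 and 6.59 TPM to 1.37, 1.81 and 2.29 TPM (-0.95 ± 0.11, adjusted p = 0.000403). The related Gbp10, which shares sequence with its neighbours, fell by 1.41 ± 0.21. The immunoproteasome subunits Psmb8 and Psmb9 fell by 0.59 and 0.55 and the peptide transporter Tap2 by 0.39. The antiviral genes Ifit1, Isg15 and Rsad2 differed by -0.55, -0.50 and -0.34 and were not called. MHC class II and C1q belong to macrophages and other antigen-presenting cells, and the markers of these cells moved too. Of 10 Kupffer cell and macrophage markers 4 fell and 0 rose, none was at 0, and their sum was 231 to 414 TPM in nulliparous and 149 to 293 TPM in lactating mice. Their count was 2 without mouse LAC_102 or LAC_36, 7 without mouse LAC_200 and 8 without mouse NUL_4. Their part in the falls of this list was not tested, and in whole liver fewer cells of a type and less RNA per cell cannot be told apart.

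Promoter windows were available for 23 genes of this list. The interferon-stimulated response element was found in 11 of them and in 2.98% of all promoters. That of Gbp3 is shown since it fell and carries the element more than once, at chr3:142559794-142560025 on the plus strand, with the element in capitals on the opposite strand.
Gbp3: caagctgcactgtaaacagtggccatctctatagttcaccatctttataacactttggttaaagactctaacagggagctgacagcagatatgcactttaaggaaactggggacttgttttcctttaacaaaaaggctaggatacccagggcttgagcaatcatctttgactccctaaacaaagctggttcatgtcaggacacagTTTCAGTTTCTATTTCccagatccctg
The capitals hold 2 overlapping matches. Among the other 10 genes with a match were Gbp2, which fell, and Ifit1, Isg15 and Rsad2, which were not called.

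Markers of stellate and endothelial cells were also among the falls. Of 10 markers of stellate cells and fibroblasts 6 fell and 0 rose, with sums of 140 to 183 TPM in nulliparous and 94.5 to 118 TPM in lactating mice that did not overlap. In the fit with a stage effect per range, 1 of these markers was lower under 200 and 4 at 200 and above (median log2 changes -0.40 and -0.60). Of 10 sinusoidal endothelial markers 3 fell, with sums of 178 to 235 and 108 to 183 TPM, and 1 fell without mouse LAC_102 or LAC_133, or NUL_1, NUL_220, NUL_221, NUL_226 or NUL_227. No marker of these lists was at 0. Hgf, hepatocyte growth factor, made by stellate cells, fell by 0.58 ± 0.10. Among 25 extracellular matrix genes 4 fell and 0 rose, Tgfbi (-0.89 ± 0.10), Dcn (-0.53 ± 0.07), Col3a1 and Mmp2. In the fit by range, 2 matrix genes were lower and 1 higher under 200 (median log2 change -0.04). At 200 and above 9 were lower and 0 higher (median -0.50). Dcn, decorin, went from 103.9, 120.1 and 130.3 TPM to 73.2, 79.8 and 89.6 TPM. The calls on Col3a1 and Mmp2 were lost in 9 and 11 of 13 fits, and 2 matrix genes remained called without mouse LAC_102, LAC_200 or LAC_213, or NUL_1, NUL_226 or NUL_227.

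**Figure D5:**
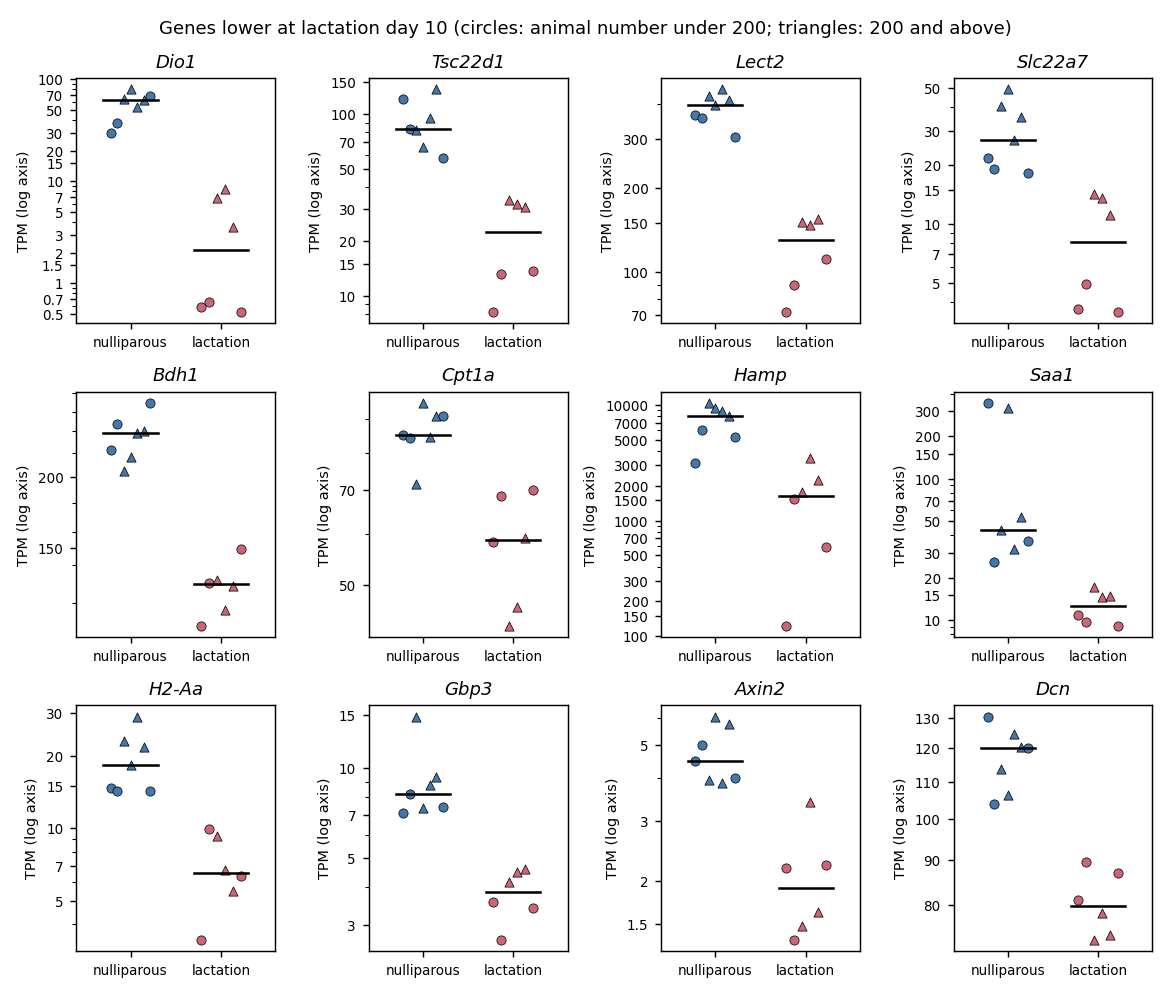
TPM of 12 genes in each of the 13 mice (vertical axes, log scale, a panel per gene), nulliparous on the left and lactation day 10 on the right, with circles for animal numbers under 200, triangles for 200 and above and a bar at the group median. Hamp is the panel in which the groups overlap, and Dio1, Tsc22d1, Lect2 and Slc22a7 show the lactating mice numbered under 200 below those of 200 and above.

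Zonation markers fell on the central side. Hepatocytes near the central vein respond to Wnt signals from its endothelium. Of 17 pericentral genes 7 fell and 0 rose (median log2 change -0.38), 5 to 8 when a mouse was left out, and 5 passed in both ranges. Lect2, a secreted hepatokine and Wnt target, went from 303.4, 394.0 and 450.8 TPM to 71.7, 129.5 and 154.8 TPM, with every lactating mouse below every nulliparous one (-1.71 ± 0.17, adjusted p = 0.000133). Axin2, a feedback inhibitor and general readout of Wnt signalling, fell by 0.93 ± 0.15, the R-spondin receptor Lgr5 by 0.90 ± 0.19 and the ligase Rnf43 by 0.65 ± 0.16 (adjusted p = 0.0229). Rnf43 was not called without mouse LAC_102 or LAC_200 (adjusted p of up to 0.0557). Gulo, of vitamin C synthesis, fell by 0.66 ± 0.10. Other central genes were not called, among them Glul, glutamine synthetase (-0.28 ± 0.13, adjusted p = 0.192), and Cyp1a2 (0.09 ± 0.24, adjusted p = 0.867). Of 14 periportal genes 2 rose and 1 fell, Cyp2f2 and Hsd17b13 upward and Ctsc downward, the last not called without mouse LAC_36 (adjusted p = 0.0508).

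The largest fall of all genes was that of Dio1, the type 1 deiodinase, which activates thyroxine in liver. Dio1 (chromosome 4, 107291465 to 107307169, minus strand, GRCm38) went from 29.5, 62.7 and 80.3 TPM to 0.52, 2.13 and 8.44 TPM, a 16.4-fold lower mean (-4.04 ± 0.45, adjusted p = 0.000258). The lactating mice numbered under 200 were lowest, at 0.587 ± 0.0702 TPM (SD, n = 3) against 6.29 ± 2.47 TPM (n = 3) at 200 and above, yet the stage effect did not pass the test for a difference between ranges (-4.77 and -3.23, adjusted p = 0.15). Among 11 genes of thyroid hormone handling 2 fell, Dio1 included, while Thrsp, named for its response to thyroid hormone, rose as described among the lipogenic genes.

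Among 21 iron genes, hepcidin and the iron exporter fell and the transferrin receptor and the ferritin chain Fth1 rose, 4 rises and 3 falls in all. Hamp, hepcidin, which blocks iron entry from the gut, went from 3154, 8008 and 10404 TPM to 122.8, 1644 and 3489 TPM (-2.67 ± 0.62, adjusted p = 0.0179). The highest lactating mouse, LAC_213, was above the lowest nulliparous one, mouse NUL_1. Tfrc, the transferrin receptor, went from 2.76, 9.85 and 16.9 TPM to 19.6, 24.6 and 34.2 TPM (1.55 ± 0.33, adjusted p = 0.0112), and the ferritin chains Fth1 and Ftl1 rose by 0.35 and 0.32, of which the call on Ftl1 was lost in 10 of 13 fits (adjusted p of 0.0815 without mouse LAC_200). Slc40a1, the iron exporter, fell by 0.78 ± 0.19, and was not called without mouse LAC_102 or LAC_36 (adjusted p of up to 0.0539). Leaving out mouse LAC_102 or LAC_36 reduced the 3 falls to 1, and leaving out mouse LAC_133, LAC_200 or LAC_240, or NUL_220, NUL_221 or NUL_227 the 4 rises to 2. Id1, induced by BMP signals as Hamp is, fell by 1.28 ± 0.33 (lost in 8 of 13 fits, adjusted p of 0.0719 without mouse LAC_102), and the further BMP targets Atoh8, Id2 and Smad7, looked at after these values were seen, differed by -1.37, -1.02 and -1.02, with adjusted p of 0.00396, 0.0151 and 0.0596. Limma-trend called 0 of 7 haemoglobin and erythroid genes, with 0 at an unadjusted p under 0.05.

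In the growth hormone, prolactin and IGF axis 4 of 20 genes fell, Stat5a (-0.55 ± 0.10), Stat5b (-0.43 ± 0.10), Ghr (-0.40 ± 0.08) and Igfbp6, the last not called in 8 of 13 fits (adjusted p of 0.0701 without mouse LAC_36). Stat5a and Stat5b carry the signal of both hormone receptors into the nucleus. The prolactin receptor Prlr was at 124.1, 144.0 and 171.1 TPM in nulliparous and 111.9, 146.0 and 155.6 TPM in lactating mice and was not called (-0.08 ± 0.09, adjusted p = 0.675). Without mouse NUL_226, 1 gene of the list was higher. Igf1 had a slightly lower mean that was not called (-0.25 ± 0.08, adjusted p = 0.0617).

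Mitotic genes were higher, from low levels. Of 29 cell cycle genes 6 rose and 0 fell, Cdc20 (1.39 ± 0.37), Cdk1 (1.22 ± 0.34), Ccnb1 (mean 3.41 times higher), Mki67 (0.78 ± 0.20), Aurkb and Ccna2. The calls on Mki67, Cdc20, Cdk1 and Ccna2 were lost in 8, 9, 10 and 10 of 13 fits without a mouse, and those on Aurkb and Ccnb1 in 0. Mki67, the proliferation marker, was at 0.14, 0.32 and 0.97 TPM in nulliparous and 0.51, 1.62 and 2.86 TPM in lactating mice, with overlap. The replication genes Mcm2 to Mcm7 and Pcna lay between -0.20 and 0.14 and were not called. In the list 0 genes passed among mice numbered under 200 and 7 at 200 and above, though a difference between ranges was not called for any of the 6. The count was 10 without mouse NUL_13, 3 without NUL_220, and 2 without mouse LAC_200, LAC_213, LAC_240 or LAC_36, or NUL_1, NUL_221, NUL_227 or NUL_4.

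Of 51 genes of amino acid breakdown and the urea cycle 5 were called, a share near the 8.53% of all genes. Gpt2 rose (0.83 ± 0.16) and Agxt, Cbs, Bckdha and Gstz1 fell. After median-ratio scaling Bckdha and Gstz1 were no longer called (adjusted p of 0.10 and 0.18), and the call on Gstz1 was also lost in 5 of 13 fits (adjusted p of 0.058 without mouse LAC_240). Agxt, which removes glyoxylate, went from 412.5, 467.2 and 543.5 TPM to 253.5, 278.1 and 359.8 TPM (-0.72 ± 0.09, adjusted p = 0.000441). Cps1, the entry enzyme of the urea cycle, was not called (0.19 ± 0.14, adjusted p = 0.455). In retinoid metabolism 3 of 17 genes rose, among them Rdh11 by 1.15 on the log2 scale and Aldh1a7 1.90 times in mean TPM, and 2 fell, Rarres2 and Rdh7, by 0.80 and 0.35. Of 12 major urinary protein genes, whose near-identical sequences make their values uncertain, Mup21 rose and Mup7 fell over all mice. In the fit with a stage effect per range, 8 were lower and 1 higher under 200 (median log2 change -1.34). At 200 and above 1 was lower and 2 were higher (median -0.02).

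Many core functions of the hepatocyte were not called over all mice. Limma-trend called 0 of 79 cytosolic ribosomal protein genes, 0 of 40 genes of protein folding in the endoplasmic reticulum, 0 of 13 mitochondrially encoded genes, 0 of 16 core clock genes, 0 of 34 nuclear receptors and coregulators and 0 of 11 ATF4 targets, and 1 of 78 nuclear genes of the respiratory chain, where 8.53% of all genes were called. At an unadjusted p under 0.05 these were 7 ribosomal, 5 folding, 1 mitochondrially encoded, 2 clock, 8 nuclear receptor and 1 ATF4 target gene, where 2707 of all 11535 genes lay under it. The share of nuclear receptors was thus that of all genes, and those of the other 5 lists were lower. With the range as covariate 13 of the 40 folding genes were higher, 14 of the 78 respiratory chain genes lower and 7 of the 34 nuclear receptors lower. In the fit with a stage effect per range, 26 respiratory chain genes were lower under 200 (median log2 change -0.23). At 200 and above 0 of them were lower and 1 was higher (median -0.01). Of the folding genes 11 were higher under 200 and 0 at 200 and above (medians 0.24 and 0.10). The folding chaperone Hspa5 was at 228, 614 and 1159 TPM in nulliparous and 435, 682 and 1196 TPM in lactating mice (adjusted p = 0.53, and 0.027 with the covariate). The call on Ndufv3, the respiratory chain gene that fell, was lost in 11 of 13 fits, and 7 genes of that list were lower without mouse NUL_227, 5 without NUL_226 and 2 without mouse LAC_213. Without mouse LAC_240 there were 3 nuclear receptors lower, and 1 without mouse LAC_102, NUL_220 or NUL_4, while 1 clock gene was higher without mouse LAC_200, LAC_213 or NUL_4.

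Outside the function lists, Akr1b7, Dntt and Plxnb1 were among the 15 largest rises. Akr1b7, an aldose reductase-like enzyme known from the adrenal gland and intestine, went from 1.61, 2.93 and 6.82 TPM to 14.4, 24.1 and 26.3 TPM (2.46 ± 0.21, adjusted p = 0.000133), by 2.51 and 2.46 in the ranges. Dntt, terminal deoxynucleotidyl transferase, otherwise a lymphocyte precursor gene, went from 0.27, 0.66 and 2.29 TPM to 4.18, 7.12 and 10.7 TPM (2.25 ± 0.24). The lymphocyte markers summed to 23.5 to 50.8 TPM in nulliparous and 29.7 to 52.1 TPM in lactating mice. Nfe2, known from the erythroid lineage, rose by 1.62 ± 0.26, and the semaphorin receptor Plxnb1 by 1.59 ± 0.21. An entry without a gene name in the annotation, AC151971.2, rose most of all genes whose groups did not overlap (2.66 ± 0.38).

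Among the 15 largest falls outside the function lists were Tsc22d1, Pcp4l1, Cela1, Rdh9 and Inhbe. Tsc22d1, a TGF-beta-responsive transcription regulator, went from 57.6, 82.7 and 137.5 TPM to 8.15, 22.4 and 33.7 TPM (-2.13 ± 0.32, adjusted p = 0.00146). Cela1, an elastase, fell by 1.74 ± 0.19, and the 8 acinar markers that include it summed to 22.6 to 41.8 TPM in nulliparous and 4.89 to 40.8 TPM in lactating mice. Inhbe, the activin E subunit, a hepatokine, fell by 1.22 ± 0.29. Pcp4l1, a small calmodulin-binding protein, fell by 1.94 ± 0.28, more at 200 and above (-2.71) than under 200 (-0.99), and that difference passed the test (-1.72 ± 0.27, adjusted p = 0.0235).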

How the data were processed

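Liver poly(A) RNA libraries were prepared with NEBNext Ultra and sequenced with paired-end reads, and the authors estimated TPM per gene with RSEM 1.3.1 against GRCm38 before the table was deposited. TPM is corrected for gene length and library total, keeps no read counts and gives no depth, so the authors' count-based test (DESeq2) could not be repeated. From these values log2(TPM + 1) was computed, so fold changes of low genes are understated. Genes whose TPM averaged 1 or more across the 13 mice were tested with limma 3.58.1 in R 4.3.3 (limma-trend), lactation day 10 against nulliparous, with Benjamini-Hochberg adjustment over 11535 genes and a call at an adjusted p under 0.05. Every adjusted p in the text comes from this model or a stated variant of it, and the fit was tested on simulated data. Each replicate is a separate mouse.

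Further fits used a term for animal numbers under 200 or from 200 upward, a stage effect per range, each range alone, median-ratio scaling, quantile normalization, other pseudocounts and filters, and all mice but 1 in turn. The members and lists were chosen with earlier results of these data known. The named genes were the 15 genes that rose most and the 15 that fell most, out of those called with no overlap between stages and 1 sign in both ranges, up to 5 members of smallest p in each list (where fewer than 2 passed, the member of highest mean TPM), and defining members of the lists and marker lists. By this rule 150 genes were chosen, and 56 further genes were chosen after their values were seen. Some genes that the rule gives are not reported here. Gene positions are from GENCODE on GRCm38 and promoters from RefSeq on GRCm38.p6. The 6 mice of the series at other stages entered only 1 alternative fit.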

Additional observations from a re-analysis of the deposited data

Results flagged for a closer look

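In 412 groups of named genes, the gap between an extreme mouse and its nearest neighbour exceeded Dixon's critical value in 22 (5.34%), and chance gives about 1 in 20 groups. The extreme mouse was the highest in 21 of them. Values below are this gap as a share of the group's range.

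Mouse NUL_13 was the highest for Cyp7a1 (0.847), the female-predominant Cyp3a41a (0.679) and the mitotic genes Aurkb (0.636), Cdk1 (0.615) and Ccna2 (0.642). Its Cyp7a1 level was 68.3 TPM, against 23.2 TPM in the next mouse. Mouse NUL_220 was the highest for the guanylate-binding proteins Gbp2 (0.712) and Gbp3 (0.714) and for Pnpla3 (0.584). Mouse NUL_221, one of the mice with high Saa1, was the highest for Steap4 (0.658) and Ldha (0.605). Mouse NUL_4 was the highest for Scp2 (0.575) and Ugp2 (0.634), and mouse NUL_227 for Nfe2 (0.713) and Lgr5 (0.658).

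Among lactating mice, LAC_213 was the highest for the BMP targets Id1 (0.858) and Id2 (0.790), and it also had the highest Hamp of its group. Its Id1 level was 18.8 TPM, against 5.53 TPM in the next mouse. Mouse LAC_102 was the highest for Thrsp (0.711), Pfkfb1 (0.814) and Ddit4 (0.627), and mouse LAC_240 for Insig1 (0.647) and Scd2 (0.662). The single low value was Tm7sf2 in mouse LAC_133 (0.782).

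The stage effect differed between the ranges of animal number, by a test of the difference itself in limma, for 4 of the named genes. The difference is given as 200 and above minus under 200 on the log2 scale. It was -1.72 for Pcp4l1 and 1.33 for Cyp4a10, both described above. For Alas2, the erythroid enzyme that opens haem synthesis, it was 1.78, from a fall by 1.35 under 200 to a difference of 0.43 at 200 and above. For Elovl3, a fatty acid elongase with a strong daily rhythm in liver, it was 1.67, from -1.70 to -0.03.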

How the results depend on the processing

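No called named gene was called with the other sign under the alternatives that were run, but 1 gene of all those tested was called with opposite signs in the 2 ranges fitted apart. With the range of animal number as covariate 2128 genes were called in place of 984 (778 higher and 1350 lower), and 317 members of the function lists in place of 167. Median-ratio scaling gave 495 higher and 448 lower genes in place of 304 and 680, and moved the median of all genes from -0.03 to 0.02. With log2(TPM + 0.1) 188 genes passed at 2-fold or more in place of 109. The stage effect differed between the ranges in 22 genes, but in 11 with a filter at 5 TPM and in 11 with log2(TPM + 0.1). Leaving out 1 mouse at a time gave 670 to 984 calls, 207 to 308 higher, 463 to 723 lower, 85 to 114 at 2-fold or more and 132 to 169 members of the function lists. The fewest calls came without mouse LAC_102, 670 genes, of which 637 were among the 984. Of 166 called named genes, 153 were still called after median-ratio scaling, 129 with no filter on low values (25260 genes tested), 107 in mice numbered under 200 alone, 121 in those from 200 upward alone, and 137 to 153 without 1 mouse. No paired analysis was possible because the numbers in the labels are animal numbers and the groups share none of them. The depth behind each TPM value is unknown, so genes near 1 TPM, such as the mitotic genes, carry an error that only the spread between mice shows.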

Other observations

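Milk protein transcripts were found in liver libraries of lactating mice. In mouse LAC_102 Wap, whey acidic protein, was at 8.73 TPM, Csn2, beta-casein, at 4.53 TPM, Csn1s1 at 2.79 TPM and Csn3 at 0.54 TPM. Mouse LAC_36 had Wap at 0.89 TPM and Csn2 at 0.34 TPM, and mouse LAC_133 had Csn1s1 at 0.08 TPM and Csn2 at 0.02 TPM. These are the 3 lactating mice numbered under 200, and the 3 from 200 upward were listed at 0 for all of these genes. Among nulliparous mice only NUL_1 had any, Wap at 0.07 TPM. Lalba, alpha-lactalbumin, was listed at 0 in all 13 mice.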
